A study of Homo sapiens with 18 samples.

Results

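The endoplasmic reticulum (ER) genes described here are 34 genes of protein folding, the unfolded protein response and ER-associated degradation (ERAD), taken by gene symbol from the 58302 genes counted by RNA-seq in U87 cells, an established human glioblastoma line also called U87MG. They comprise 20 folding genes (chaperones, their helpers and the enzymes of disulfide formation), 3 stress sensors with the transcription factor XBP1, and 10 ERAD genes. Control cells, labelled WT, grew without Erastin (2 libraries). The other cells, whose labels do not carry WT, were given 10 μM Erastin for 72 h (2 libraries). Everything else in the labels was shared between the groups. Erastin blocks system Xc-, the carrier that brings cystine into cells, and is used to bring on ferroptosis, a death driven by iron and lipid peroxidation. The labels name 2 biological replicates per group of this 1 line without saying whether they were separate cultures, and they name no vehicle for the control, so p-values measure the spread between these libraries only. The series held 14 further samples of other assays, which were not analysed here.

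Proteins that enter the secretory pathway fold in the ER, where chaperones hold them, enzymes join their cysteines by disulfide bonds, and proteins that fail to fold are sent back to the cytosol for destruction by ERAD. The sensors IRE1 (gene ERN1), ATF6 and PERK (gene EIF2AK3) span the ER membrane and start the unfolded protein response when unfolded proteins build up. IRE1 splices the XBP1 transcript, ATF6 is cut to release a transcription factor, and PERK phosphorylates the translation factor eIF2α, after which ATF4 is made. XBP1 and ATF6 are known to raise the transcription of chaperone and ERAD genes, whereas other kinases that sense amino acid shortage, viral RNA or heme also feed the ATF4 branch.

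Most of the tested folding genes (11 of 19) fell in Erastin-treated cells, whereas 3 of the 4 sensor and XBP1 genes and 4 of 9 tested ERAD genes rose. Of the 32 members with enough counts to test, 12 fell and 9 rose at an adjusted p under 0.05 in edgeR's quasi-likelihood test, and 11 did not pass. The falls made up 37.5% of the tested members, against 23.7% of all 16751 genes tested. The rises made up 28.1%, near the 23.2% of all genes tested, and without Erastin replicate 1 there were 5 of them in place of 9. Both Erastin libraries lay below both control libraries for 14 members and above them for 13, against 36.9% and 36.7% of all genes tested. The falls reached 2-fold for HSP90B1 and PDIA4, while 9.34% of all genes tested fell that far. No member rose 2-fold, a background of 6.24%, in edgeR at the adjusted threshold, at an unadjusted p under 0.05 or in DESeq2 (0 genes in each). The median log2 fold change (Erastin minus control) was -0.06 over the tested members and -0.0026 over all genes tested.

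**Figure D1:**
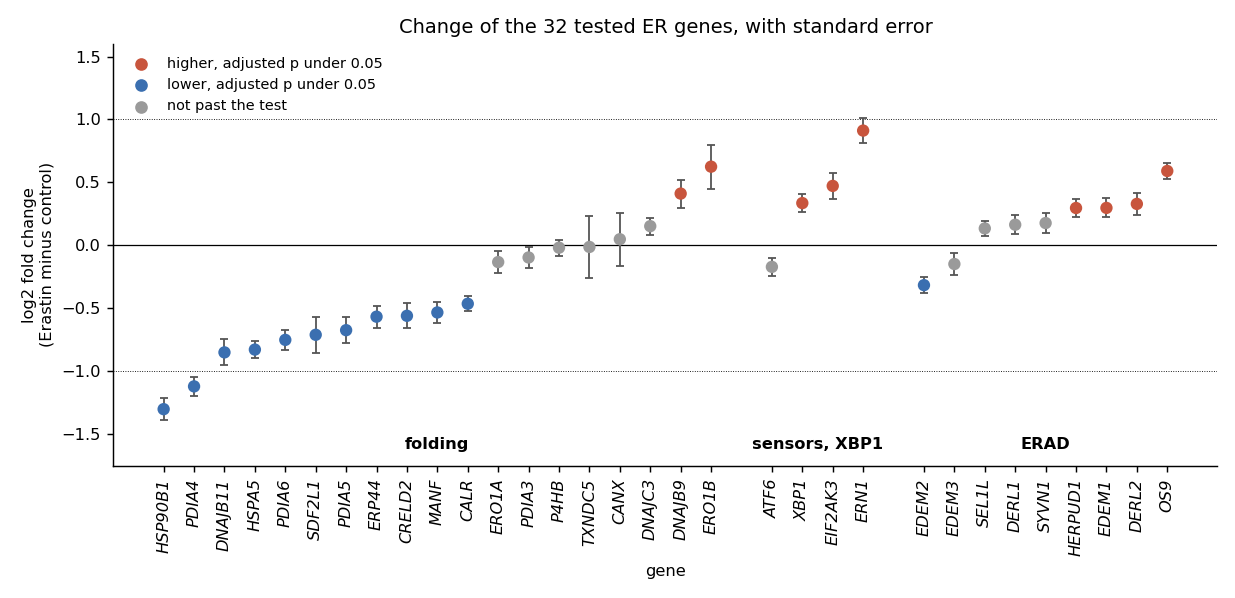
Log2 fold change (vertical axis, Erastin minus control) of the 32 tested members, grouped by role on the horizontal axis. Error bars are standard errors derived from edgeR's F statistic (2 control and 2 Erastin libraries). Red and blue points passed the test and grey points did not, and dotted lines mark 2-fold; the 11 folding genes that fell lie between -1.30 and -0.46, and ERN1 is the highest point at 0.91.

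Summed over the folding genes, the level fell from 6922 ± 408 to 4625 ± 118 CPM (counts scaled to library size and the TMM factors, mean ± SD, n = 2), or 66.8% of control. Control replicates summed to 6634 and 7211 CPM and Erastin replicates to 4708 and 4542 CPM, without overlap. The 4 sensor and XBP1 genes together gave 293 ± 1.40 CPM in control and 340.5 ± 7.59 CPM in Erastin, and the 10 ERAD genes gave 1067 ± 35.7 CPM and 1214 ± 15.8 CPM (SD, n = 2). Both of these sums were higher in each Erastin library than in either control library. A sum of CPM is led by its most abundant genes, and no test was made on it. In RNA from a whole culture, fewer cells of a kind and less RNA per cell cannot be told apart.

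**Figure D2:**
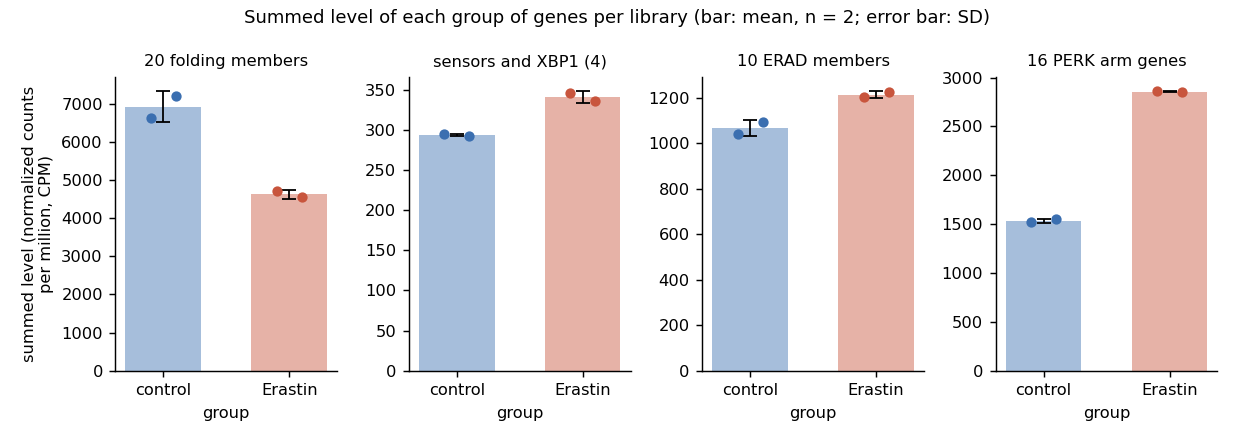
Summed level (vertical axis, CPM) of the folding, sensor, ERAD and PERK arm genes in each library, as points by group, with bars for the mean and error bars for the SD (n = 2). The folding sum falls to 66.8% of control, and the PERK arm sum rises to 185.9%.

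Promoter letters known from the unfolded protein response were looked for in the members, and those of genes that moved are shown beside the changes. Promoter windows of 300 bases, running from 250 bases before the RefSeq start of transcription into the first exon (GRCh38.p14), were found for 31 of the 34 members, in 38 windows. The ER stress response element (ERSE), read here as CCAAT and CCACG with 9 bases of any kind between them on either strand, is known to be bound by ATF6 and XBP1 with the factor NF-Y. Its letters occurred in 0.0769% of all 35116 windows and in 10 of the 38 windows of members, which belong to 8 members. The element was looked for because it is known from this response, so these shares are not a test. Of these 8, PDIA6, HSPA5, HSP90B1, CALR and CRELD2 fell, ERO1B and XBP1 rose, and CANX did not pass the test. The related ERSE-II, ATTGG and CCACG with 1 base of any kind between them, occurred in 0.0541% of all windows and in those of SDF2L1, which fell, HERPUD1, which rose, and HYOU1, which was not tested. The unfolded protein response element of XBP1, TGACGTGG, occurred in 0.729% of windows and in those of TXNDC5 and HYOU1, in the latter overlapping an ERSE-II. The composite element bound by C/EBP and ATF factors, TGATGCAA, occurred in 0.866% of windows and, among the members, in that of HERPUD1. Genes with the same element thus lay on both sides of the comparison, and a match of letters is a description and not a site shown to be in use.

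Whole windows are given for HSPA5 (chr9:125241294-125241593, minus strand) and HSP90B1 (chr12:103930160-103930459, plus strand), which fell, and for XBP1 (chr22:28800520-28800819, minus strand) and HERPUD1 (chr16:56931892-56932191, plus strand), which rose. They are written 5′ to 3′ on the strand of the gene, with the ERSE, the ERSE-II or, in HERPUD1, the composite element as well in capitals.
HSPA5: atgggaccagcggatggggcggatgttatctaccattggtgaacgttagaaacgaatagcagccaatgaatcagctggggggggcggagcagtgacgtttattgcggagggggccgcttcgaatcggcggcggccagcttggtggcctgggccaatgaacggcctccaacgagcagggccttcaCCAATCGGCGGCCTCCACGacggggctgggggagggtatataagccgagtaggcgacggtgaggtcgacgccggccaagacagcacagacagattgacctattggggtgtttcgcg
HSP90B1: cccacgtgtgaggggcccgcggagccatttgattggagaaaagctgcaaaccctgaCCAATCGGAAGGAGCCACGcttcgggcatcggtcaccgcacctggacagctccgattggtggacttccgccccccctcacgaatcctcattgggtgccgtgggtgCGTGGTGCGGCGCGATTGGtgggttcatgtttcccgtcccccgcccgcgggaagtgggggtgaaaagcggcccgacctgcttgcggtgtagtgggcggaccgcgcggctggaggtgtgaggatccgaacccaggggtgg
XBP1: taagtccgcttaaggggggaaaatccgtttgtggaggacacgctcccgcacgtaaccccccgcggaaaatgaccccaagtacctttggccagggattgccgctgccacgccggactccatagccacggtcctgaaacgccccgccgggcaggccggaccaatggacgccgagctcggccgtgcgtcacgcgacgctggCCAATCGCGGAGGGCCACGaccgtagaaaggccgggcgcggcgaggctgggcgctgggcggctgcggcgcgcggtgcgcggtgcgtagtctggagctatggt
HERPUD1: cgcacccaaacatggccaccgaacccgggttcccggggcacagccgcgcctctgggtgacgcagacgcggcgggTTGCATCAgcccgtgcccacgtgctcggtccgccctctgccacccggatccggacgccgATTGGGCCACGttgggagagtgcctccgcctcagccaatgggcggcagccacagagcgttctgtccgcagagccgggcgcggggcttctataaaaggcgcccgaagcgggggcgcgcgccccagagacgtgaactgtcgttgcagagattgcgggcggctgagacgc
With the start base counted as 0, the ERSE of HSPA5 spans bases -66 to -48 and that of XBP1 bases -52 to -34. HSP90B1 holds 2 of them, at -194 to -176 and at -89 to -71, the latter on the opposite strand.

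Shorter stretches of 81 bases show the element in further members that moved. They come from CALR (chr19:12938359-12938439, plus strand), PDIA6 (chr2:10812822-10812902, minus strand), CRELD2 (chr22:49918523-49918603, plus strand) and SDF2L1 (chr22:21642079-21642159, plus strand), which fell, and from ERO1B (chr1:236282128-236282208, minus strand), which rose. Capitals mark the ERSE, or in SDF2L1 the ERSE-II, which reads as its reverse complement in every one of these but PDIA6.
CALR: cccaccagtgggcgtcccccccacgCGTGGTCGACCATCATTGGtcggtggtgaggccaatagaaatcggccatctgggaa
PDIA6: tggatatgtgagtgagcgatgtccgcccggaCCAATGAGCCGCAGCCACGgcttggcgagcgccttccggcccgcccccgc
CRELD2: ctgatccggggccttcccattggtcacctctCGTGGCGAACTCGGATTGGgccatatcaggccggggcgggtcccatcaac
SDF2L1: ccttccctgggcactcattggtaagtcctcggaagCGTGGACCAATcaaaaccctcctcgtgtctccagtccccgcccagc
ERO1B: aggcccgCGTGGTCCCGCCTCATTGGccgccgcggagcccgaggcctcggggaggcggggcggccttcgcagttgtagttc
The CRELD2 element lies between the RefSeq starts of CRELD2 and of ALG12, an enzyme of glycan assembly read from the other strand, and falls in both windows. In the annotation used for counting the genes overlap, and the element lies inside CRELD2. CRELD2 fell by 0.56 on the log2 scale, whereas ALG12 had a log2 fold change of 0.01 and did not pass the test, a value looked up because of the shared element.

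Among the HSP70 and HSP90 chaperones and their partners, 4 of the 6 tested genes fell and DNAJB9 rose. Falls and rises made up 23.7% and 23.2% of all genes tested. HSP90B1 (GRP94, ENSG00000166598, chr12:103930107-103953645), the HSP90 of the ER, had 33353 and 40702 counts in control and 14987 and 14862 in Erastin. The Erastin libraries lay far below both controls, although the controls themselves differed. Its log2 fold change was -1.30 (standard error 0.0851, edgeR adjusted p = 2.05e-07), the largest fall among the members, and fits on 3 of the 4 libraries put it between -1.43 and -1.17.

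HSPA5 (BiP, ENSG00000044574, chr9:125234853-125241330) is the HSP70 of the ER, which also holds the sensors inactive, and its counts were read out after its change had been seen. They were 42062 and 46700 in control and 24657 and 25034 in Erastin, so the groups did not overlap. The log2 fold change was -0.83 (standard error 0.0671, edgeR adjusted p = 1.23e-06). Cut into words of 31 bases, 21.6% of its transcript also occurs elsewhere on the chromosomes, and reads that match several places were not counted. DNAJB11, a co-chaperone that brings clients to BiP, fell by 0.85 (standard error 0.103, edgeR adjusted p = 3.24e-05). SDF2L1, which works with DNAJB11, fell by 0.71 (standard error 0.143, edgeR adjusted p = 0.00156) on the log2 scale.

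DNAJB9, a co-chaperone that is also known to keep IRE1 in check, went the other way. Its counts were 558 and 568 in control and 745 and 744 in Erastin, and its log2 fold change was 0.41 (standard error 0.112, edgeR adjusted p = 0.00992). The adjusted p was 0.0760 without Erastin replicate 1. DNAJC3, a co-chaperone that inhibits PERK, had a log2 fold change of 0.15 (edgeR adjusted p = 0.0835). HYOU1, which exchanges the nucleotide of BiP, was listed at 0 in all 4 libraries and was not tested. A count of 0 allows up to 3 counts per library, or 0.0955 to 0.100 CPM, which covers counting error only. Of its transcript words, 0.247% occur elsewhere on the chromosomes and 0% on alternate scaffolds, and 8.66% of its exon bases are shared with another gene. HYOU1 is known to be made by most cells, so the 0 is doubtful as a measure of its level. Its cause was not tested.

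The lectin chaperones CALR and CANX hold glycoproteins by their sugar while these fold. CALR (ENSG00000179218), the soluble one, had 48915 and 48368 counts in control and 34252 and 35909 in Erastin. The Erastin libraries were below both controls, and the log2 fold change was -0.46 (standard error 0.0608, edgeR adjusted p = 6.28e-05). CANX, its membrane-bound relative, had 188 and 248 counts in control and 248 and 199 in Erastin, so the groups overlapped. Its log2 fold change of 0.05 ± 0.21 (standard error) did not pass the test (edgeR adjusted p = 0.873) and turned negative without control replicate 1 or without Erastin replicate 1. CANX had a level per length of 1.13 RPKM (CPM for each kilobase of exon) in control against 582 RPKM for CALR, and 14.9% of its transcript words occur elsewhere on the chromosomes, though whether this lowered its count was not tested. CANX is known to be abundant in most cells, so this level is doubtful and the gap to CALR is not read as one of expression.

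Of the 9 genes of disulfide formation, 4 fell, ERO1B rose and 4 did not pass the test. Falls made up 44.4% and rises 11.1% of these 9, against 23.7% and 23.2% of all genes tested. PDIA4 (ERp72, ENSG00000155660, chr7:149003062-149028641), a disulfide isomerase, had 15202 and 17468 counts in control and 7575 and 7351 in Erastin. Both Erastin libraries were near each other and below the controls. The log2 fold change was -1.12 (standard error 0.0765, edgeR adjusted p = 3.01e-07), and -1.21 to -1.04 in fits on 3 libraries. PDIA4 was no longer past 2-fold when the test itself was made against a 2-fold change. PDIA6 fell by 0.75, PDIA5 by 0.67 and ERP44, which retrieves oxidase enzymes that leave the ER, by 0.57 on the log2 scale, with edgeR adjusted p-values of 8.18e-06, 0.000239 and 0.000219. Of the exon bases of PDIA6, 25.2% are shared with a neighbouring gene that had few counts.

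Other isomerases of the family did not pass the test. P4HB, the founding member, was read at 24106 and 25434 counts in control and 24426 and 24190 in Erastin, values chosen after they were seen, and its log2 fold change was -0.02 ± 0.06 (standard error, edgeR adjusted p = 0.838). PDIA3, which works with the lectin chaperones, had a log2 fold change of -0.10 (edgeR adjusted p = 0.382). Without control replicate 1 the PDIA3 value was -0.23 (adjusted p = 0.00248), and without control replicate 2 it was 0.04. For PDIA3, 45.4% of transcript words occur elsewhere on the chromosomes and 24.7% on alternate scaffolds. TXNDC5 had a log2 fold change of -0.01 (edgeR adjusted p = 0.971) on 137 to 210 counts per library, and 60.6% of its exon bases belong also to a readthrough gene, where reads were not counted for either.

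The oxidases ERO1A and ERO1B pass the electrons of new disulfide bonds to oxygen. ERO1B had 303 and 395 counts in control and 598 and 469 in Erastin, higher in both Erastin libraries. Its log2 fold change was 0.62 (standard error 0.174, edgeR adjusted p = 0.0110), and without Erastin replicate 1 the adjusted p was 0.140. ERO1A had a log2 fold change of -0.13 (edgeR adjusted p = 0.226), which became -0.24 (adjusted p = 0.00810) without control replicate 1. Leaving out that Erastin library thus took away both rises among the folding genes, DNAJB9 and ERO1B, while the number of folding genes that fell stayed within 1.5 times its value in each such fit.

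The secreted stress factors both fell. CRELD2, which is induced with the chaperones in ER stress, had 1295 and 1252 counts in control and 884 and 833 in Erastin, and its log2 fold change was -0.56 (standard error 0.101, edgeR adjusted p = 0.00070). MANF, a secreted protein that binds BiP, had 1897 and 2129 counts in control and 1354 and 1412 in Erastin. Its log2 fold change was -0.53 (standard error 0.0834, edgeR adjusted p = 0.000248). Neither gene overlapped between the groups.

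**Figure D3:**
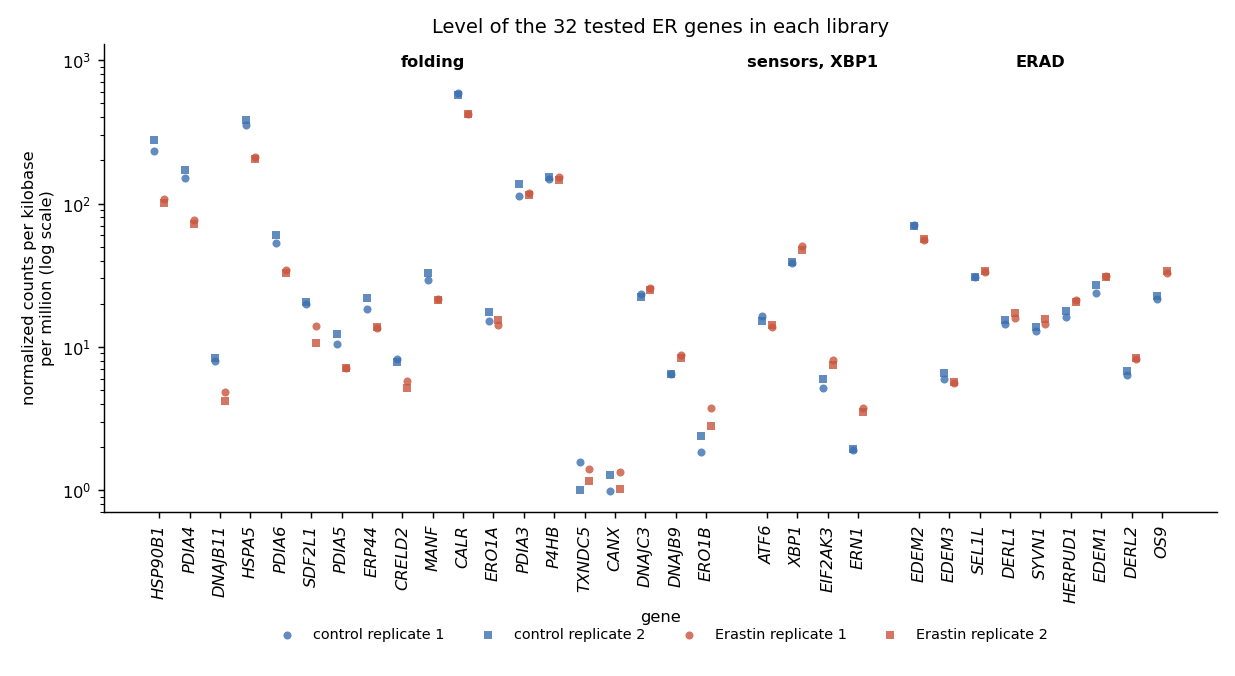
Level of the 32 tested members (horizontal axis, ordered by change within each role) in each library, in RPKM on a log axis, with blue for control, red for Erastin, circles for replicate 1 and squares for replicate 2. HSP90B1 goes from a mean of 255.7 to 104 RPKM and ERN1 from 1.93 to 3.63, while TXNDC5 and CANX sit lowest and overlap between the groups.

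Of the sensor genes and XBP1, 3 of 4 rose and ATF6 did not pass the test, while 23.2% of all genes tested rose. ERN1 (IRE1, ENSG00000178607, chr17:64039142-64130819) had 634 and 657 counts in control and 1215 and 1200 in Erastin. The replicates lay close together and the groups far apart. The log2 fold change was 0.91 (standard error 0.102, edgeR adjusted p = 1.74e-05), the largest rise among the members and short of 2-fold, and fits on 3 libraries gave 0.87 to 0.96.

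XBP1 (ENSG00000100219, chr22:28794555-28800597) had 3576 and 3689 counts in control and 4603 and 4511 in Erastin, higher in both Erastin libraries. Its log2 fold change was 0.34 (standard error 0.0690, edgeR adjusted p = 0.00178). A count per gene does not separate the spliced transcript, which encodes the active factor, from the unspliced, so the rise says nothing of splicing. EIF2AK3 (PERK) had 863 and 1010 counts in control and 1305 and 1277 in Erastin, with a log2 fold change of 0.47 (standard error 0.104, edgeR adjusted p = 0.00280). Of its transcript words, 17.7% occur elsewhere on the chromosomes.

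ATF6, with 3926 and 3725 counts in control and 3223 and 3543 in Erastin, is the sensor released by cutting. Both Erastin libraries lay below both controls, but the log2 fold change was small at -0.17 (standard error 0.0706, edgeR adjusted p = 0.0664). With all 4 libraries no sensor fell in edgeR, 1 did at an unadjusted p under 0.05, and 0 did in DESeq2. Without control replicate 2, ATF6 fell in edgeR, by 0.23 with an adjusted p of 0.0127. The protein and the cleavage of ATF6, and the phosphorylation of IRE1 and PERK, were not measured by these libraries.

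Among the ERAD genes, 4 rose, EDEM2 fell and 4 of the 9 tested did not pass the test. Rises made up 44.4% of the tested and falls 11.1%, against 23.2% and 23.7% of all genes tested. OS9, the lectin that reads the trimmed glycans of misfolded proteins, had 3411 and 3603 counts in control and 5053 and 5460 in Erastin. The gap between the groups was wide beside that between replicates. The log2 fold change was 0.59 (standard error 0.0669, edgeR adjusted p = 1.98e-05). DERL2, a channel protein, HERPUD1, which gathers the ligase complex, and EDEM1, which trims mannose, rose by 0.33, 0.30 and 0.30 on the log2 scale (edgeR adjusted p = 0.00750, 0.00595 and 0.00634). For HERPUD1 and EDEM1 the adjusted p became 0.0559 and 0.0560 without Erastin replicate 1, which left 2 ERAD genes that rose.

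Of the EDEM mannosidases, EDEM1 rose and EDEM2 fell. EDEM2, which starts the trimming, had 4153 and 4155 counts in control and 3215 and 3424 in Erastin. Its log2 fold change was -0.32 (standard error 0.0663, edgeR adjusted p = 0.00202), and both Erastin libraries were below both controls. EDEM3 had a log2 fold change of -0.15 (edgeR adjusted p = 0.190).

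The core genes of the ERAD ligase did not pass the test. SYVN1 (HRD1), the ubiquitin ligase, and SEL1L, its adaptor, had log2 fold changes of 0.18 and 0.13 (edgeR adjusted p = 0.0776 and 0.0989), and DERL1 had 0.16 (adjusted p = 0.0903). Each of the 3 was higher in both Erastin libraries than in both controls, as were 36.7% of all genes tested. With scaling by library totals alone, all 3 passed the test and 7 ERAD genes rose in place of 4. That scaling moved the median of all genes tested from -0.0026 to 0.05. SYVN1 and DERL1 also passed without control replicate 2. DERL3 was listed at 0 in all 4 libraries, and 96.9% of its transcript words also occur on alternate scaffolds of the genome. Reads that match more than 1 place were not counted, and whether that gave the 0 was not tested, so the 0 does not show that the gene was silent.

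Compared per length, most of the abundant members fell, which was not tested as a pattern. In control cells 8 members lay above 50 RPKM, a limit chosen after the levels were seen. Their levels in RPKM were CALR at 582 ± 11.1, HSPA5 at 368 ± 23.1, HSP90B1 at 255.7 ± 33.1, PDIA4 at 162 ± 14.1, P4HB at 151.5 ± 4.05, PDIA3 at 124 ± 16.8, EDEM2 at 70.2 ± 0.762 and PDIA6 at 56.4 ± 4.95 (SD, n = 2). Of these 8, 6 fell and P4HB and PDIA3 did not pass the test. All of the 8 but EDEM2 are folding genes, so these calls largely repeat those of the folding genes. Of the 24 tested members at or under that level, 6 fell, 9 rose and 9 did not pass the test. Among all genes tested, at any level, 23.7% fell and 23.2% rose, and the shares for genes of like level were not computed.

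The order of the levels changed accordingly. PDIA4 and P4HB differed by less than the spread between replicates in control, whereas in Erastin PDIA4 was at 74.3 ± 4.16 and P4HB at 149.6 ± 6.23 RPKM (SD, n = 2). HSP90B1, the third highest in control, was at 104 ± 4.23 RPKM in Erastin, below P4HB and PDIA3. XBP1 went from 38.9 ± 0.421 to 49.1 ± 2.41 RPKM, and ERN1 stayed among the lowest at 3.63 ± 0.158 RPKM after its rise.

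The spread between replicates was itself shared among the folding genes. Control replicate 2 was above control replicate 1 for 15 of the 19 tested folding genes, with a median log2 ratio of 0.144, and for 7 of the 9 ERAD genes, with a median of 0.10. Erastin replicate 2 was above Erastin replicate 1 for 2 of the 19 folding genes, with a median of -0.08. These medians were smaller in size than the median fall of the folding genes, -0.53. Single folding genes had log2 ratios of -0.639 to 0.377 between the controls and of -0.421 to 0.122 between the Erastin libraries.

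The PERK arm is the part of the response that runs through ATF4, and its list here also holds the other eIF2α kinases. Those kinases feed the same ATF4 branch. This list held larger rises than any member. All 16 of its genes were tested. There were 12 rises (75%, against 23.2% of all genes tested) and 2 falls (12.5%, against 23.7%). Of the rises 6 were 2-fold in edgeR and 7 in DESeq2, and 6.24% of all genes tested rose that far in edgeR. The median of the log2 fold changes in this list was 0.49. Without Erastin replicate 1 the falls were 1. CHAC1, an enzyme that breaks down glutathione, had 218 and 226 counts in control and 1575 and 1414 in Erastin (log2 fold change 2.76, standard error 0.124, edgeR adjusted p = 8.81e-09). NUPR1, a stress-induced chromatin protein, had 1414 and 1508 counts in control and 8156 and 8483 in Erastin (2.52, standard error 0.0706, adjusted p = 3.98e-10). ATF3, a transcription factor, had 850 and 852 counts in control and 3869 and 4197 in Erastin (2.25, standard error 0.0752, adjusted p = 1.01e-09). In all 3 the Erastin libraries stood several times above the controls.

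The following genes of that arm were named after their values had been seen. PPP1R15A, which returns eIF2α to its unphosphorylated state, rose by 2.03 on the log2 scale, ATF4 by 2.02 and DDIT3 (CHOP), a factor linked to death under stress, by 1.40. Of the transcript words of ATF4, 40% occur elsewhere on the chromosomes, and 28% of the exon bases of DDIT3 are shared with MARS1, which had many counts. ASNS, the asparagine synthetase that ATF4 is known to induce, rose by 1.00, just short of 2-fold in edgeR. Its counts were 80 and 95 in control and 187 and 160 in Erastin. Of its exon bases 44.6% are shared with another gene, and 31.5% of its transcript words occur elsewhere on the chromosomes. TRIB3, a further ATF4 target, rose by 0.45. Transcripts of the kinases EIF2AK1 (HRI), which senses heme, and EIF2AK2 (PKR), which senses double-stranded RNA, fell by 0.33 and 0.51. EIF2AK4 (GCN2), which senses amino acid shortage, had a log2 fold change of -0.16 (edgeR adjusted p = 0.0673). Among the eIF2α kinases only the EIF2AK3 transcript rose. Kinase activity was not measured, and which kinase lay behind the rise of ATF4 was not tested.

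**Figure D4:**
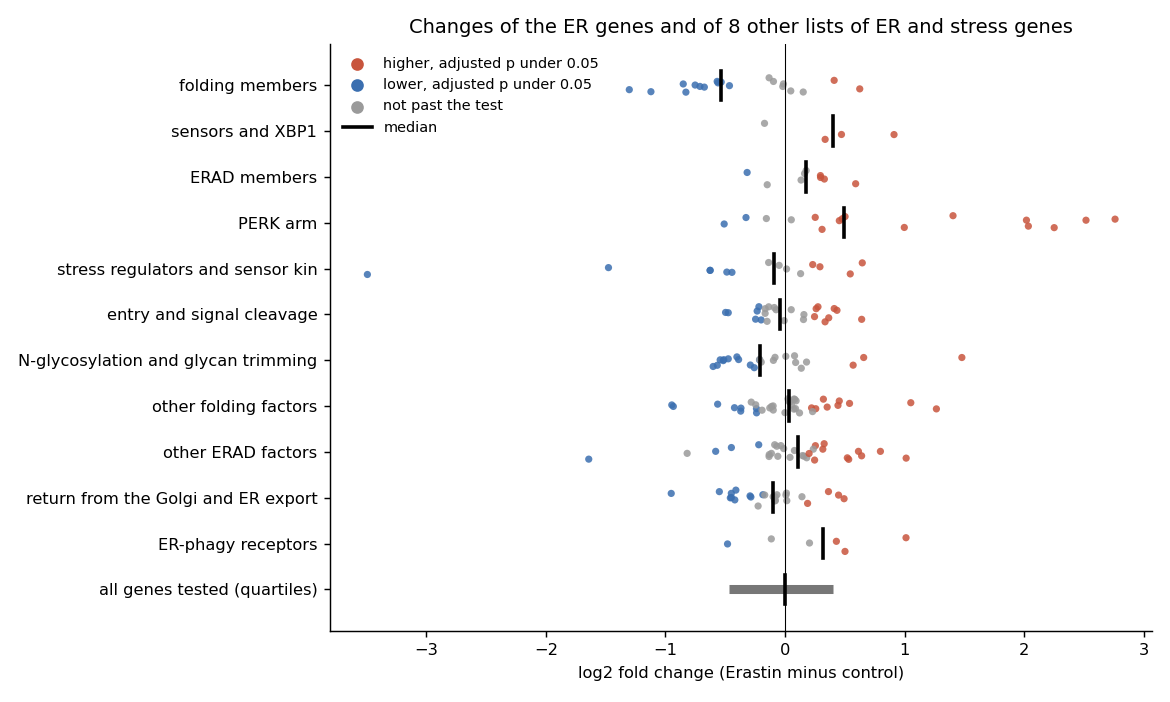
Log2 fold change (horizontal axis, Erastin minus control) of each tested gene, as points in rows for the 3 roles and 8 further lists, with black bars for medians and a grey bar for the middle quartiles of all genes tested. The medians are -0.53 for the folding members, 0.40 for the sensors and XBP1, 0.18 for the ERAD members and 0.49 for the PERK arm, against -0.0026 for all genes.

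Proteins enter the ER through the Sec61 channel, and the genes of entry and signal cleavage moved both ways. Rises were seen in 8 of 24 genes and falls in 6 (33.3% and 25%, near the 23.2% and 23.7% of all genes tested), around a median of -0.04 on the log2 scale. The rises were 3 without Erastin replicate 2 and the falls 2 without Erastin replicate 1. The largest rise was that of SEC61G, a channel subunit, at 0.64 (standard error 0.0720, edgeR adjusted p = 1.83e-05), and the largest fall that of SSR1, of the translocon-associated complex, at -0.50 (standard error 0.0693, edgeR adjusted p = 0.000103).

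Of the 23 genes that attach and trim the glycans read by CALR, CANX and OS9, 11 fell and 3 rose, and their median was -0.21. These were 47.8% and 13.0%, against 23.7% and 23.2% of all genes tested. Fewer of them fell without Erastin replicate 1, a fit in which fewer of all genes tested fell as well. TUSC3, a subunit of the transferase that attaches the glycan, rose 2-fold, from 1009 and 1031 counts to 2900 and 2751 (log2 fold change 1.48, standard error 0.0830, edgeR adjusted p = 5.68e-08). PRKCSH, the regulatory subunit of glucosidase II, had the largest fall, by 0.60 (adjusted p = 1.16e-05), and UGGT1, which sends misfolded glycoproteins back to CALR, fell by 0.52 (adjusted p = 5.95e-05). Both were named after their values had been seen.

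Folding factors outside the 34 members moved both ways. There were 9 rises and 8 falls among 36 tested genes of 38 (25% and 22.2%, near the shares of all genes tested), and their median was 0.03. The falls were 4 without Erastin replicate 1 or 2, 5 without control replicate 2 and 5 in DESeq2. CDNF, a relative of MANF, rose from 30 and 30 counts to 69 and 75 (log2 fold change 1.27, standard error 0.356, edgeR adjusted p = 0.0118), while MANF fell. RCN3, a calcium-binding protein of the ER, rose by 1.05 (adjusted p = 0.000233). The proline isomerases FKBP11 and FKBP7 fell by 0.95 and 0.93 (adjusted p = 0.000177 and 0.00135), values looked up after the fact.

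Of the 33 ERAD factors outside the members, 30 were tested. There were 11 rises and 4 falls (36.7% and 13.3%, against 23.2% and 23.7% of all genes tested), around a median of 0.11. Fewer of them rose without Erastin replicate 1, a fit in which fewer of all genes tested rose as well. TRIM13, a ubiquitin ligase of the ER membrane, rose from 276 and 303 counts to 609 and 552 (log2 fold change 1.01, standard error 0.141, edgeR adjusted p = 9.93e-05). FBXO2, which brings glycoproteins to a cytosolic ligase, fell from 159 and 158 counts to 48 and 53 (-1.64, standard error 0.261, adjusted p = 0.000283). VCP, the ATPase that pulls proteins out of the membrane, which was looked up afterwards, had a log2 fold change of 0.16 (edgeR adjusted p = 0.0694).

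The libraries held 29412656 to 31513519 counts. Mitochondrial genes took 7.23% to 7.85% of the counts in control and 2.80% to 3.54% in Erastin, and the part of this shift in the results was not tested. Of 9 glial and glioma markers, VIM and CD44 were abundant. Near 0 or low in this line were S100B, SOX2 and FABP7, with at most 6 counts in any library, and GFAP, with 41 to 81. Of the 6 tested, 4 fell, with log2 fold changes of -3.62 for NES, -2.26 for CHI3L1, -0.60 for VIM and -0.36 for CD44. GFAP, at 0.79, and OLIG2, at -0.40, did not pass the test (edgeR adjusted p = 0.0696 and 0.305). For GFAP both Erastin libraries lay above both controls. The sum of the 9 was at 67.5% of control. Most of it was VIM and CD44, at 2515 and 1405 of 4162 CPM in control, so it says little of the other markers. The part of these markers in the results was not tested. Of 13 markers of other cell types, 9 had at most 20 counts in every library, PTPRC, CDH5 and CDH1 among them with at most 1, and the sum of all 13 was 23.6 and 26.4 CPM in control against 12.5 and 11.8 CPM in Erastin. Most of that sum was SYT1, which fell by 0.98, and PECAM1, which fell by 2.34, whereas VWF rose by 2.58 on 4 to 32 counts.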

How the data were processed

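RNA was measured in 4 libraries, 2 control and 2 Erastin, grouped by their labels. The authors deposited a table of raw counts per gene, made from HISAT2 2.1.0 alignments per the submitters' processing notes, which name featureCounts 2.0.4, while the table's header names version 2.0.3 with the Ensembl release 90 annotation of GRCh38 and the study's methods name htseq-count. Reads matching several places or genes were left out, strand was ignored, and by the header's command each read of a pair was counted. Decimals, as estimated counts can have, were looked for in the deposited values, and all were whole.

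The tests ran in edgeR 4.0.16 (R 4.3.3). The filterByExpr filter with a minimum count of 10 kept 16751 genes, TMM factors lay between 0.971 and 1.02, and groups were compared by the quasi-likelihood test without a block (two-sided, Benjamini-Hochberg over all genes tested). The thresholds were an adjusted p under 0.05 and, for 2-fold, a change of at least 1 on the log2 scale. An exact permutation test of 2 against 2 cannot give a p below 0.333, so the variance was borrowed across genes, with a coefficient of variation of 10.3% between replicates. The edgeR test does not itself report a standard error. The standard errors given were computed as the absolute log2 fold change divided by the square root of the F statistic. Levels per kilobase use the exon length in the table.

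The members and lists were chosen with earlier results of these data known. Members were all named or counted, with counts per library for those past 2-fold, for the sensors and XBP1 and for the largest rise and fall of each kind, and other lists gave the genes past 2-fold (at most 3 each way) or the largest rise and fall. Other genes were named after their values were seen. The settings also tried were library totals, RLE size factors, DESeq2 1.42.0, other filters, halved counts, glmTreat, a replicate block and each library left out. Transcripts were compared with the 261 alternate scaffolds and the chromosomes by 31-base words, with GENCODE release 44 sequences. Promoter windows were those of RefSeq on GRCh38.p14, where 31 members had one, and sequences were searched on both strands. On data simulated with 16751 genes, of which only 200 were changed, edgeR recovered 79 of 100 genes changed 2-fold and 98 of 100 changed 4-fold. It called 10 unchanged genes. In the real data 3977 genes fell and 3892 rose, so these rates do not describe the real comparison. ChIP-seq and HiChIP samples were not analysed here.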

Additional observations from a re-analysis of the deposited data

How the results depend on the processing

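The number of members that fell stayed at 12 or within 1.5 times of it in every alternative run, and no member that passed the test changed its sign. Leaving out each library in turn gave 5 to 11 members that rose against 9, with the low value without Erastin replicate 1, when the members DNAJB9, ERO1B, HERPUD1 and EDEM1 lost their call. The same fits gave 0 to 2 risen folding genes, 0 to 1 fallen sensors, 2 to 6 risen ERAD members, 1 to 2 fallen PERK arm genes, 3 to 8 risen and 2 to 6 fallen entry genes, 7 to 13 fallen glycosylation genes, 4 to 8 fallen other folding factors and 7 to 11 risen other ERAD factors. Log2 fold changes that changed sign in those fits were those of CANX (-0.16 to 0.24), PDIA3 (-0.231 to 0.0401), P4HB (-0.0633 to 0.0238) and TXNDC5 (-0.31 to 0.34), whose groups overlap. Library totals gave 7 risen ERAD members, and log2 fold changes of 0.0308 for P4HB and 0.0400 for TXNDC5. DESeq2 gave 5 fallen other folding factors against 8, and glmTreat left 1 member, HSP90B1, past 2-fold. The labels do not say that equal replicate numbers were prepared together, and the deviations of same-numbered libraries had a correlation of 0.02. With the replicate block 9 members rose and 12 fell as without it, TXNDC5 had a log2 fold change of 0.0111, and no call changed among the 60 genes refitted by name, which leave out several genes named after their values were seen. The cause of these differences was not tested. With 2 libraries per group the standard errors of 0.0608 to 0.244 limit what could be called, and genes that failed the filter on low counts were not tested.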

Other observations

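ER residents that escape to the Golgi are returned by the KDEL receptors, and cargo leaves the ER in coated vesicles. Of 26 genes of return and export, 25 were tested, 10 fell and 4 rose, with a median log2 fold change of -0.10. Falls made up 40% and rises 16%, against 23.7% and 23.2% of all genes tested. KDELR3, a KDEL receptor, had 2323 and 2467 counts in control and 1161 and 1305 in Erastin, and its log2 fold change was -0.95 (standard error 0.0805, edgeR adjusted p = 1.76e-06), the largest fall of the list. KDELR2 fell by 0.42 (adjusted p = 0.000154), whereas KDELR1 had a log2 fold change of -0.08 (edgeR adjusted p = 0.369). SAR1B, a small GTPase that starts the export coat, had the largest rise, at 0.49 (edgeR adjusted p = 0.000220). SURF4, a cargo receptor, had 0 counts in control and 2 in each Erastin library and was not tested. It is known to be made by most cells, so these counts are doubtful as a measure of its level, and their cause was not tested. KDELR2 and KDELR1 were named after their values had been seen.

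Receptors of ER-phagy hand pieces of the ER to autophagosomes. Of 6, 3 rose and RTN3 fell by 0.48 (edgeR adjusted p = 5.85e-05). Rises made up 50% and falls 16.7% of this short list, against 23.2% and 23.7% of all genes tested. ATL3, which also shapes ER tubules, rose from 3333 and 3298 counts to 6518 and 6792 (log2 fold change 1.01, standard error 0.0657, edgeR adjusted p = 1.93e-07). CCPG1 and CALCOCO1 rose by 0.50 and 0.43, and these and RTN3 were named after their values had been seen.

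Of 17 stress regulators and relatives of the sensors, 14 were tested, 6 fell and 4 rose. These were 42.9% and 28.6% of the tested, against 23.7% and 23.2% of all genes tested. CREB3L3, a membrane-bound transcription factor of the ATF6 kind, had 128 and 134 counts in control and 8 and 15 in Erastin (log2 fold change -3.49, standard error 0.378, edgeR adjusted p = 1.37e-05). MAP3K5 (ASK1), a kinase downstream of IRE1, fell from 319 and 375 counts to 120 and 128 (-1.48, standard error 0.183, edgeR adjusted p = 4.00e-05). MBTPS1, the protease that makes the first cut in ATF6, fell by 0.49 (adjusted p = 7.66e-05), while CREB3, a relative of CREB3L3, rose by 0.65 (adjusted p = 0.000107), both named after their values had been seen. ATF6B had 2 to 10 counts per library and was not tested, and 82% of its transcript words also occur on alternate scaffolds, so the low count does not show a low level.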
